A study of Homo sapiens with 9 samples.

Results

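The 42 genes described here make up the ATF4 amino acid and stress response. They were taken from the deposited count table by gene symbol, and each symbol matched 1 of the 58299 Ensembl genes counted. The set holds 7 transcription factors, 9 stress effectors and feedback genes, 7 genes of amino acid synthesis, 3 of mitochondrial folate metabolism, 6 amino acid transporters and 10 genes of tRNA charging and export. All 42 passed the filter on low counts, which left 14965 genes for testing.

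RNA came from AC16, a human line derived from adult ventricular heart cells fused with transformed fibroblasts, grown in medium with glutamine dipeptide and non-essential amino acids. The 3 groups of 3 libraries were vehicle (0.1% DMSO, 72 h), 100 nM CDDO-Me for 24 h and 100 nM CDDO-Me for 72 h. CDDO-Me, also called bardoxolone methyl, is a triterpenoid that releases the transcription factor NRF2 from its adaptor KEAP1. Vehicle was analysed here at 72 h alone, so culture time and treatment cannot be told apart in the 24 h group. Nothing in the labels tells whether the replicates of a group came from different cultures. The p-values therefore describe the spread among these libraries, which may be technical.

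When a shortage of amino acids, stress in the endoplasmic reticulum, a lack of heme or viral RNA activates a sensor kinase, the translation factor eIF2 is phosphorylated and most protein synthesis slows. The ATF4 transcript carries short upstream reading frames and is then translated more, so much of the control of ATF4 lies in translation and is not seen in transcript counts. ATF4 protein pairs with C/EBP proteins on amino acid response elements and drives genes that import, make and charge amino acids, and also genes that end the response.

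The amino acid response element has the core TGATGNAA, and it was looked for on both strands of RefSeq promoter windows of GRCh38.p14 (250 bases before to 50 after each gene's start). Windows were found for 37 of the 42 genes. The core lay in 9 of these 37 (24.3%) and in 1003 of all 27305 windows (3.67%). A match describes the letters only and is not evidence of binding. The 6 members whose core began before the start are shown 5′ to 3′ on the gene's strand, with the core in capitals and up to 30 bases on either side, because they place the element beside the levels given later. They are ASNS (chr7:97872439-97872506, minus strand), IARS1 (chr9:92293698-92293740, minus), CARS1 (chr11:3057418-3057455, minus), MARS1 (chr12:57488034-57488071, plus), CHAC1 (chr15:40953232-40953299, plus) and AARS1 (chr16:70289656-70289723, minus).
ASNS: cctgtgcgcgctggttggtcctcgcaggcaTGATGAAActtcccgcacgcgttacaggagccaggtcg
IARS1: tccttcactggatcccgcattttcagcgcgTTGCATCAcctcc
CARS1: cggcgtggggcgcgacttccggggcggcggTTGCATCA
MARS1: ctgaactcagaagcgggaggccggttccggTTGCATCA
CHAC1: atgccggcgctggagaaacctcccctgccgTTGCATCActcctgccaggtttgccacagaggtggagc
AARS1: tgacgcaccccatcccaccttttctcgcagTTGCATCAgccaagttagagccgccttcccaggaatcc

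In 5 of these stretches the core lies on the opposite strand and so appears here as TTGCATCA, and ASNS carries it forward as TGATGAAA. The first base of the core lay 68 bases before the start in ASNS, 209 in CHAC1, 187 in AARS1, 13 in IARS1, 4 in MARS1 and 2 in CARS1. SLC3A2, SLC7A1 and NARS1 held the core after the start. The NRF2 site, the antioxidant response element, was searched in the same way by its core TGACNNNGC, and lay in 11 of the 37 windows (29.7%) against 13.6% of all windows. SLC3A2 and SLC7A1 held both cores.

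Total counts ran from 16898977 to 27910031 per library. Levels are CPM, read counts put on a common library size, and RPKM, which also divides by exon length, is used where genes are compared with each other. CDDO-Me 24 h replicate 3 stood apart, with a biological coefficient of variation of 20.9% and 19.9% against replicates 1 and 2, which differed from each other by 6.38%. It was nearer to the 72 h libraries than to its own group, at 13.4, 12.8 and 13.5% against 72 h replicates 1, 2 and 3. The 24 h replicates 1 and 2 differed from the 72 h libraries by 14.3 to 15.7%. The reason was not tested. DMSO replicate 1 differed from replicates 2 and 3 by 12.1% and 13.9%, and the 72 h libraries from each other by 2.73 to 3.31%. Of 10 heart muscle markers, 4 (MYH6, MYH7, MYL2 and RYR2) were at 0 in all 9 libraries, where 3 counts would be 0.107 to 0.178 CPM, and the 10 summed to 5.12 to 9.27 CPM, mostly TTN. All 8 fibroblast markers were detected, at summed levels of 15160 to 16510 CPM in DMSO, 19140, 17960 and 12660 CPM in 24 h replicates 1, 2 and 3, and 17350 to 17860 CPM at 72 h. The 6 endothelial and immune markers summed to 1.07 to 3.29 CPM. The nuclear-retained RNAs MALAT1, NEAT1 and KCNQ1OT1 summed to 81.5 to 156.0 CPM in DMSO, to 204.3, 219.2 and 64.1 CPM in the 24 h replicates in order, and to 59.9 to 95.2 CPM at 72 h.

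In vehicle cells the set spanned a wide range of levels. The median was 30.6 RPKM, 27 of 42 genes lay above 10 RPKM, 5 above 100 RPKM and 4 below 1 RPKM. The most abundant was SLC7A5, the light chain of the LAT1 transporter that exchanges large neutral amino acids, at 236.1 ± 20.1 RPKM (SD, n = 3). ATF4 itself followed at 159.3 ± 14.8 RPKM, the glutamine carrier SLC1A5 at 104.3 RPKM, the translation repressor EIF4EBP1 at 102.7 RPKM and the alanyl-tRNA synthetase AARS1 at 102.7 RPKM. SLC7A5 and ATF4 differed by more than their spread, and SLC1A5, EIF4EBP1 and AARS1 did not. The lowest were the sulfur enzyme CTH at 1.77 RPKM, the ubiquitin ligase adaptor KLHL24 at 0.750, the lipoprotein receptor VLDLR at 0.573, the sulfur enzyme CBS at 0.255 and the asparagine synthetase ASNS at 0.180 RPKM.

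ASNS, a much used reporter of ATF4 activity, was therefore the lowest of the 42 members. Its 4455 exon bases overlap a second gene on the same strand over 44.6% of their length, and that gene was at no more than 0.207 CPM in any library. How reads that match more than 1 gene were treated is not given in the sources used here, so the level of ASNS is uncertain. Other members with over 20% of exon bases shared were DDIT4 (41.2%), DDIT3 (39.6%), MTHFD2 (33.2%), SLC1A5 (23.8%) and ATF5 (23.7%). Their partners lie mostly on the opposite strand, which an unstranded library cannot separate. Of 30 annotated copies of members, the most abundant reached 6.46 CPM (PSPHP1), so PSPH may be undercounted.

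**Figure D1:**
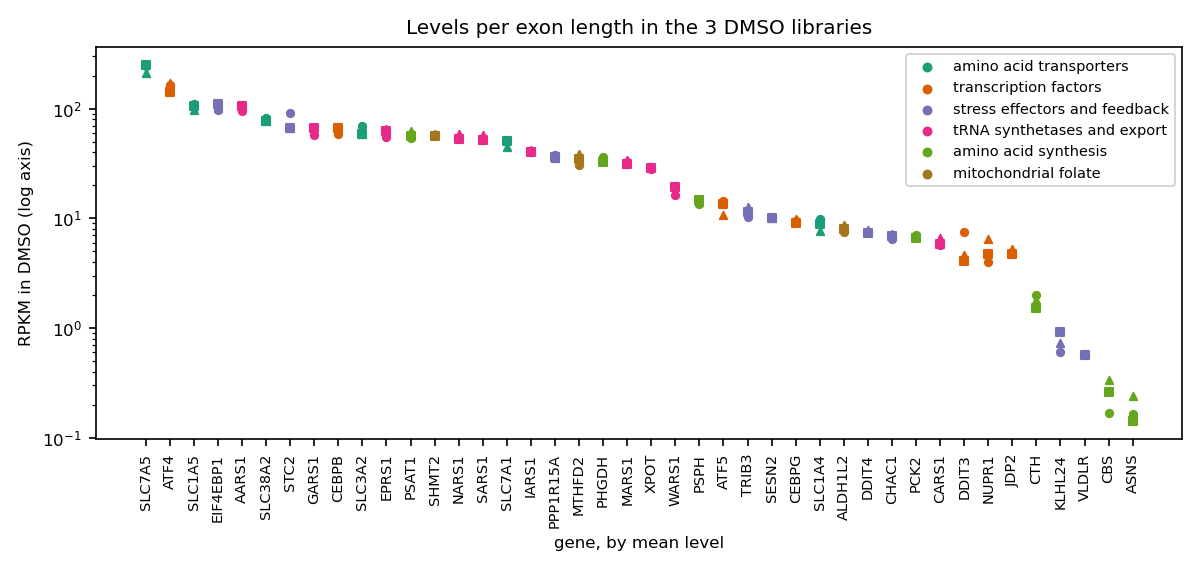
Levels of the 42 genes in the 3 DMSO libraries, in RPKM on a log axis, ordered by mean and coloured by role, with each library as a point. SLC7A5 at 236.1 RPKM and ATF4 at 159.3 RPKM lead, and ASNS at 0.180 RPKM is the lowest.

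After 24 h of CDDO-Me, 6 of the 42 genes rose and none fell. The transcription factor CEBPB, the mTORC1 brake SESN2, the glutamine carrier SLC1A5, the glutathione-degrading enzyme CHAC1, the pseudokinase TRIB3 and the serine synthesis enzyme PSAT1 passed edgeR's quasi-likelihood test. The 6 are 14.3% of the set, where 0.969% of all tested genes were called higher and 1.18% lower. The median log2 fold change of the set was 0.22 (all tested genes, 0.01), and 33 of 42 values were positive. Unadjusted p-values under 0.05 were found for 17 members with a higher level (40.5%, against 6.59% of all genes) and 1, the glutamine carrier SLC38A2, with a lower one (2.38%, against 6.22%). In 14 members every 24 h library lay above every DMSO library, and in 1, again SLC38A2, below, where the shares over all genes were 6.73% and 6.74%.

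Among the transcription factors, CEBPB (chr20:50190734-50192689), a C/EBP partner of ATF4, was the one that passed. It had 115.5, 131.5 and 122.7 CPM in the DMSO libraries and 224.8, 198.2 and 225.1 CPM at 24 h. The treated and vehicle libraries did not overlap, and the log2 fold change was 0.81 ± 0.08 (SE; edgeR adjusted p = 7.84e-05). In RNA from whole cultures, more transcript per cell and more cells with the transcript cannot be told apart.

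ATF4 (chr22:39519695-39522685) had 408.5, 359.9 and 432.9 CPM in DMSO and 501.9, 489.6 and 498.6 CPM at 24 h. All 3 treated libraries lay above all 3 vehicle libraries, yet the log2 fold change of 0.31 ± 0.08 had an edgeR adjusted p of 0.055. ATF4 passed in 2 of the 9 fits that left out 1 library, without DMSO replicate 3 (edgeR adjusted p = 0.0411) and without 24 h replicate 3 (0.0102). In the other 7 fits the edgeR adjusted p ran from 0.0765 to 0.259, the last without DMSO replicate 2, where the log2 fold change was 0.24. The edgeR adjusted p was 0.28 with only the groups compared and 0.0472 with the replicate number as a block, and DESeq2 gave an adjusted p of 0.00819.

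The other 5 factors did not pass the test. DDIT3, the CHOP protein of prolonged stress, had 9.82, 5.36 and 6.05 CPM in DMSO and 8.85, 9.83 and 8.63 CPM at 24 h, and DMSO replicate 1 lay within the treated range. NUPR1, a small stress-induced chromatin protein, had 22.8, 26.7 and 36.6 CPM in DMSO and 51.2, 57.5 and 24.4 CPM at 24 h. JDP2, a repressor of AP-1 sites, had 47.3, 37.7 and 25.3 CPM at 24 h against 29.5 to 32.5 CPM in DMSO. In both NUPR1 and JDP2 replicates 1 and 2 exceeded all 3 vehicle libraries. Replicate 3 lay within the vehicle range for NUPR1 and below every vehicle library for JDP2. CEBPG, a C/EBP partner, and ATF5, a relative of ATF4, had log2 fold changes of 0.05 and −0.04.

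Of the 9 stress effectors and feedback genes, 3 rose at 24 h. SESN2 (chr1:28259527-28282491), the leucine-sensing sestrin, had 35.3, 34.7 and 35.0 CPM in DMSO and 50.9, 49.1 and 50.3 CPM at 24 h. The groups were far apart against a spread of 1.83% or less within each, with a log2 fold change of 0.52 ± 0.08 (edgeR adjusted p = 0.00271). TRIB3 (chr20:362835-397559), which restrains AKT and ATF4, had 35.3, 38.9 and 43.1 CPM in DMSO and 57.1, 58.5 and 47.8 CPM at 24 h. The groups did not overlap, and the log2 fold change was 0.48 ± 0.11 (edgeR adjusted p = 0.0339). CHAC1 (chr15:40952962-40956519) had 13.3, 14.1 and 14.7 CPM in DMSO and 31.2, 23.5 and 17.5 CPM at 24 h. All treated libraries were higher, replicate 3 by the least, and the log2 fold change was 0.77 ± 0.17 (edgeR adjusted p = 0.0309).

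DDIT4 (chr10:72273920-72276036), the REDD1 inhibitor of mTORC1, had the highest log2 fold change of the set and did not pass. It had 15.5, 15.1 and 16.1 CPM in DMSO and 79.6, 73.0 and 22.9 CPM at 24 h. The 3 treated libraries were above all vehicle libraries, but replicate 3 was far below replicates 1 and 2, and the log2 fold change of 1.90 ± 0.43 had an edgeR adjusted p of 0.0915. PPP1R15A, the GADD34 subunit that directs eIF2 dephosphorylation, had 115.6, 112.1 and 109.9 CPM in DMSO and 84.0, 80.1 and 167.7 CPM at 24 h. Replicates 1 and 2 lay below and replicate 3 above every vehicle library, for a log2 fold change of −0.02 ± 0.26. EIF4EBP1, the secreted glycoprotein STC2, VLDLR and KLHL24 ranged from −0.33 to 0.20 and did not pass.

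Of the 7 genes of amino acid synthesis, 1 rose at 24 h and all 7 had positive log2 fold changes, with a median of 0.42. PSAT1 (chr9:78297143-78330093), the aminotransferase of serine synthesis, had 119.0, 124.1 and 136.9 CPM in DMSO and 187.3, 196.6 and 138.9 CPM at 24 h. Replicate 3 was only just above the highest vehicle library, and the log2 fold change was 0.46 ± 0.11 (edgeR adjusted p = 0.0446). The dehydrogenase PHGDH and the phosphatase PSPH, the other two steps of serine synthesis, had log2 fold changes of 0.26 and 0.25 with edgeR adjusted p-values of 0.17 and 0.24. PCK2, the mitochondrial enzyme that makes phosphoenolpyruvate, had 29.3, 27.5 and 28.4 CPM in DMSO and 44.1, 43.0 and 27.3 CPM at 24 h, so replicate 3 was below the vehicle libraries. ASNS had 0.724, 0.625 and 1.06 CPM in DMSO and 2.50, 2.53 and 0.950 CPM at 24 h. Its replicates 1 and 2 stood above and replicate 3 lay within the vehicle range, for a log2 fold change of 1.27 ± 0.41 (edgeR adjusted p = 0.154). CTH and CBS, which pass sulfur from methionine to cysteine, had log2 fold changes of 0.41 and 0.43 without passing.

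None of the 3 mitochondrial folate enzymes passed at 24 h. SHMT2, which splits serine to charge folate in mitochondria, had 276.2, 272.6 and 284.2 CPM in DMSO and 348.2, 330.0 and 291.4 CPM at 24 h, all above vehicle, with a log2 fold change of 0.22 (edgeR adjusted p = 0.201). MTHFD2, the next enzyme, and ALDH1L2, which releases the carbon as carbon dioxide, had log2 fold changes of 0.12 and 0.22.

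Of the 6 amino acid transporters, 1 rose at 24 h. SLC1A5 (chr19:46774883-46788594, minus strand) had 370.1, 350.2 and 322.6 CPM in DMSO and 477.4, 463.8 and 425.8 CPM at 24 h. All treated libraries were higher, and the log2 fold change was 0.39 ± 0.08 (edgeR adjusted p = 0.0133). SLC3A2, the shared heavy chain of LAT1 and of the cystine importer, had 362.9, 301.7 and 302.9 CPM in DMSO and 380.8, 368.1 and 496.5 CPM at 24 h, also without overlap, but its log2 fold change of 0.36 had an edgeR adjusted p of 0.117. SLC7A5, the cationic carrier SLC7A1, the serine and alanine carrier SLC1A4 and the glutamine carrier SLC38A2 ranged from −0.20 to 0.11 and did not pass.

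None of the 10 genes of tRNA charging and export passed at 24 h, and their median log2 fold change was 0.09. The highest were the cysteinyl enzyme CARS1 at 0.35 ± 0.11 (edgeR adjusted p = 0.139) and the methionyl enzyme MARS1 at 0.27 ± 0.08 (edgeR adjusted p = 0.142). CARS1 had 57.0, 58.1 and 66.1 CPM in DMSO and 83.2, 85.7 and 62.7 CPM at 24 h. MARS1 had 228.0, 219.4 and 236.9 CPM in DMSO and 296.3, 288.5 and 239.1 CPM at 24 h. In both genes replicates 1 and 2 were high, and replicate 3 lay near the vehicle libraries. AARS1, GARS1, SARS1, IARS1, NARS1 and the tRNA exporter XPOT had log2 fold changes from 0.02 to 0.14, and the tryptophanyl and glutamyl-prolyl enzymes WARS1 and EPRS1 both had −0.08. Of the 5 synthetases with the TGATGNAA core in their windows, CARS1 and MARS1 were thus the highest at 24 h, AARS1 was at 0.14, and IARS1 and NARS1 were at 0.03 and 0.02.

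**Figure D2:**
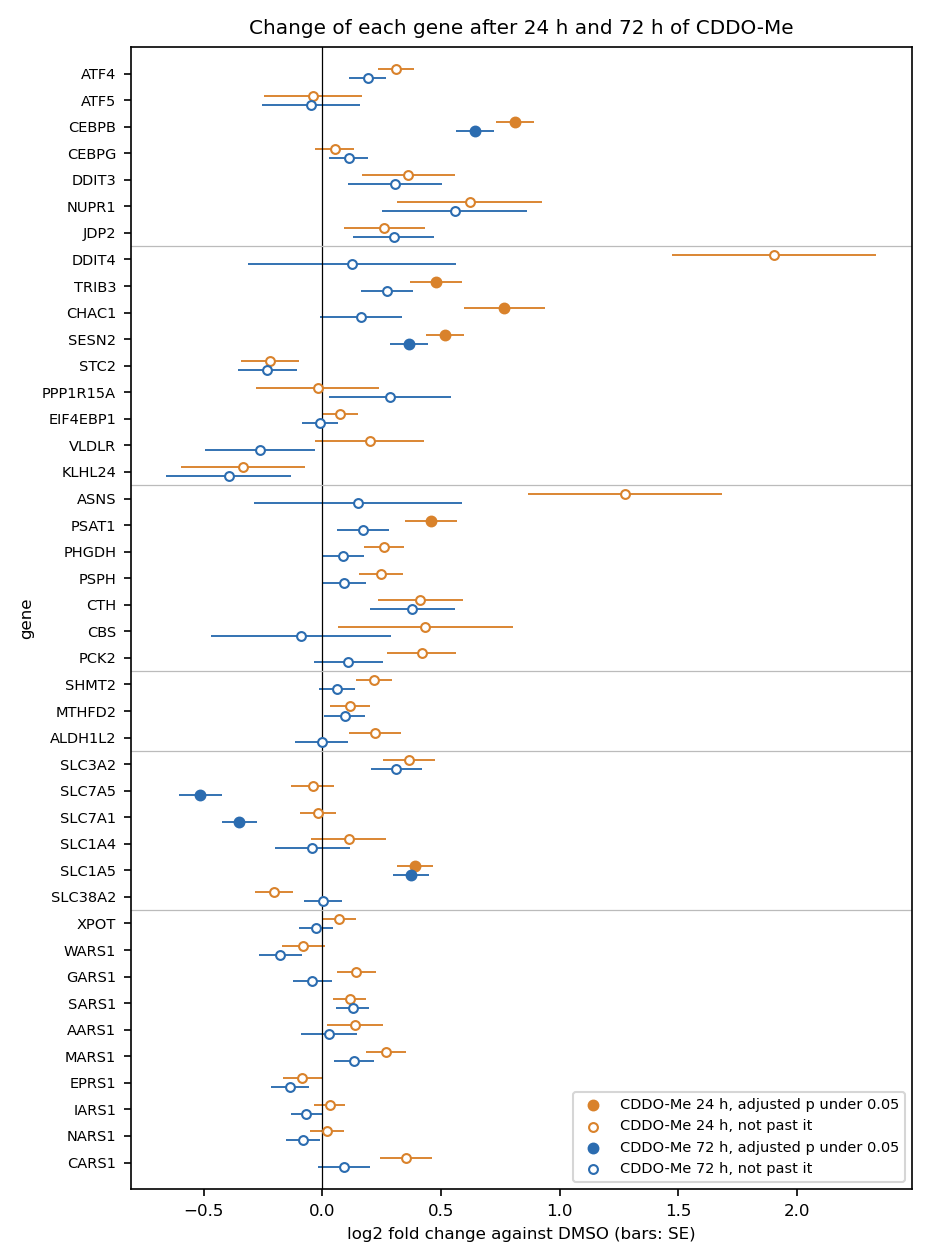
Log2 fold change of each of the 42 genes at 24 h and 72 h against DMSO, with bars of 1 SE, ordered by role, and filled markers for an adjusted p under 0.05. At 24 h the called genes are CEBPB, SESN2, SLC1A5, CHAC1, TRIB3 and PSAT1, and at 72 h CEBPB, SLC1A5 and SESN2 are called higher and SLC7A5 and SLC7A1 lower.

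Of the 6 calls at 24 h, 4 were lost in some fits that left out 1 library. CEBPB and SESN2 passed in all 9 such fits. SLC1A5 passed in 5 of the 9, with edgeR adjusted p-values of up to 0.0637 without DMSO replicate 2 or 3 or 24 h replicate 1 or 2. CHAC1 passed in 2 of the 9 (up to 0.14 without DMSO replicate 2), TRIB3 in 3 (up to 0.157 without 24 h replicate 2) and PSAT1 in 1 (up to 0.198 without 24 h replicate 2). With limma-voom CHAC1 (adjusted p = 0.0895), TRIB3 (0.053) and PSAT1 (0.0788) did not pass, and with only the groups compared these 3 and SLC1A5 did not (0.0984 to 0.174). The count of members higher was 2 without DMSO replicate 2, 24 h replicate 1 or 24 h replicate 2, 3 without 72 h replicate 3, and 20 without 24 h replicate 3.

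The 24 h libraries fell into a pattern that crossed the roles. In 14 members all 3 libraries lay above every DMSO library (33.3%, against 6.73% of all genes). In 11 others replicates 1 and 2 did so and replicate 3 did not (26.2%, against 12.8% of all genes), namely AARS1, ALDH1L2, ASNS, CARS1, JDP2, NUPR1, PCK2, PHGDH, SLC1A4, VLDLR and XPOT. In 3 members, ATF5, PPP1R15A and SLC7A5, replicate 3 alone did so (7.14%, against 15.3% of all genes). The median of all members relative to the DMSO mean was 0.31, 0.28 and 0.07 on the log2 scale in replicates 1, 2 and 3. For 5 NRF2 reference genes (NQO1, HMOX1, GCLM, TXNRD1 and SRXN1) the medians in the same libraries were 1.10, 1.11 and 2.28. Replicate 3 was thus the lowest of the 24 h libraries for the ATF4 set, for fibroblast markers and for nuclear-retained RNA, and the highest for NRF2 targets. The part of these differences in the ATF4 values was not tested.

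**Figure D3:**
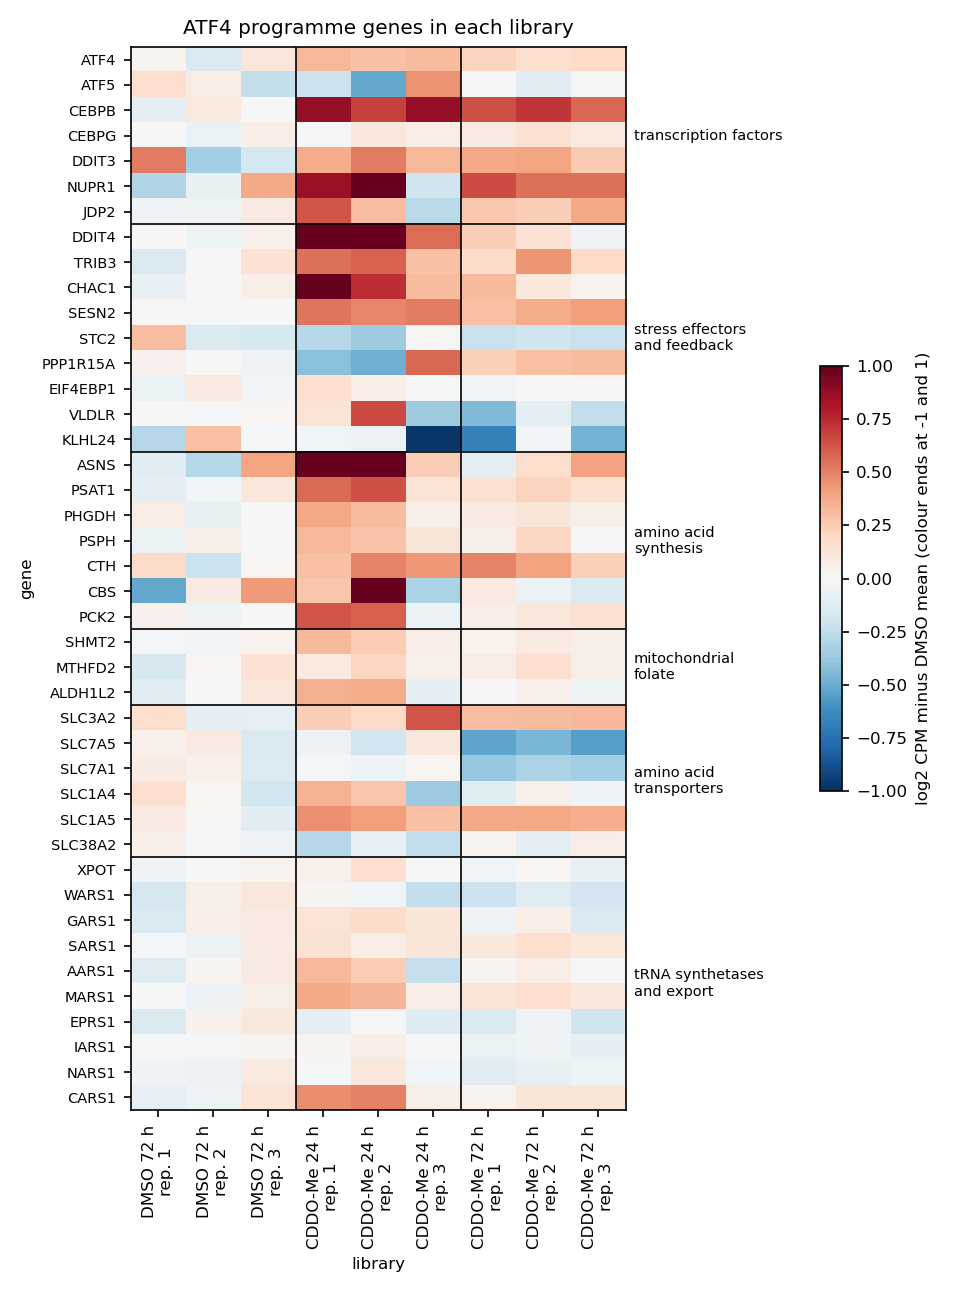
Heat map of the 42 genes (rows, by role) in the 9 libraries (columns), with colour for log2 CPM minus the mean of the DMSO libraries (colours end at −1 and 1). Among the 24 h columns replicates 1 and 2 look alike, and replicate 3 is lower than both for DDIT4, ASNS, PCK2 and NUPR1 and higher for PPP1R15A.

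Without 24 h replicate 3, the edgeR test called 20 members higher at 24 h (47.6%, against 5.8% of all genes) and 1 lower (2.38%, against 5.21%). In this fit DDIT4 had a log2 fold change of 2.29 (edgeR adjusted p = 4.53e-11), ASNS 1.63 (0.00424), NUPR1 0.92 (0.00138), PCK2 0.61 (0.000218) and CARS1 0.48 (0.000834). PHGDH, PSPH and PSAT1, all 3 enzymes of serine synthesis, were called, as were SHMT2 and ALDH1L2 of mitochondrial folate metabolism and AARS1, CARS1 and MARS1 among the synthetases. PPP1R15A was the member called lower, at −0.46 (0.000339). When DMSO replicate 1 was left out as well, 22 members were called higher (52.4%, against 12.1% of all genes) and 2, PPP1R15A and STC2, lower (4.76%, against 11%). No label gives a reason to set either library aside.

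**Figure D4:**
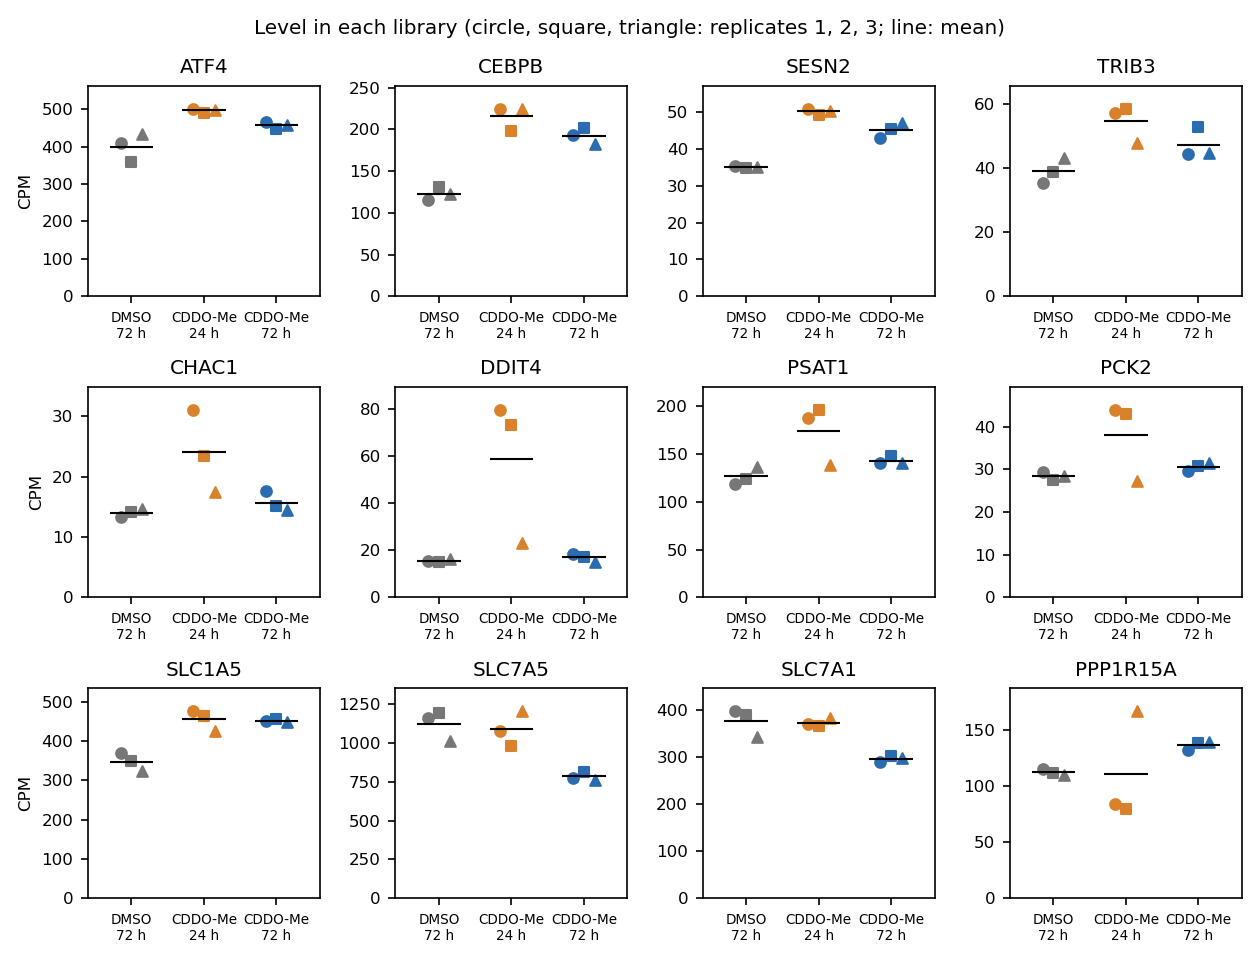
Levels in CPM of 12 members in each of the 9 libraries, grouped by treatment, with replicates as circles, squares and triangles and the group mean as a line. CEBPB and SESN2 separate from DMSO in every treated library, DDIT4 and PCK2 at 24 h are high in replicates 1 and 2, and SLC7A5 and SLC7A1 are low at 72 h.

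After 72 h of CDDO-Me, CEBPB, SESN2 and SLC1A5 were higher than in vehicle, and the transporters SLC7A5 and SLC7A1 were lower. The 3 members that rose are 7.14% of the set (2.89% of all tested genes) and the 2 that fell are 4.76% (3.13% of all tested genes). The median log2 fold change was 0.09 (all tested genes, 0.00), and 26 of 42 values were positive. Unadjusted p-values under 0.05 were found for 6 members with a higher level (14.3%, against 9.1% of all genes) and 2 with a lower one (4.76%, against 9.47%). The 72 h libraries lay wholly above DMSO in 16 members and wholly below in 5 (SLC7A5, SLC7A1, STC2, VLDLR and IARS1), where the shares over all genes were 15.5% and 15.2%. The 72 h libraries also varied less, with a median coefficient of variation over members of 3.47%, against 7.29% in DMSO and 10.6% at 24 h (all tested genes 5.74%, 10.8% and 12.9%).

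CEBPB had 192.9, 201.5 and 182.8 CPM at 72 h, all above the vehicle range of 115.5 to 131.5 CPM, with a log2 fold change of 0.64 ± 0.08 (edgeR adjusted p = 0.000196). SESN2 had 43.0, 45.2 and 46.9 CPM, above vehicle and below the 24 h libraries, with 0.36 ± 0.08 (edgeR adjusted p = 0.0134). SLC1A5 had 450.1, 454.9 and 447.6 CPM, close to its 24 h levels, with 0.38 ± 0.08 (edgeR adjusted p = 0.00855). These are the 3 members called against DMSO at both times. The same DMSO libraries serve both comparisons, so the second is not independent of the first.

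SLC7A5 (chr16:87830023-87869488, minus strand) had 1159, 1190 and 1012 CPM in DMSO and 776.0, 815.8 and 761.7 CPM at 72 h. No treated library reached the vehicle range, and the log2 fold change was −0.51 ± 0.09 (edgeR adjusted p = 0.00331). SLC7A1 (chr13:29509410-29595688, minus strand), which imports arginine and lysine, had 398.1, 389.6 and 342.6 CPM in DMSO and 289.1, 301.7 and 296.7 CPM at 72 h. The groups did not overlap, and the log2 fold change was −0.35 ± 0.07 (edgeR adjusted p = 0.0116). SLC3A2, the partner chain of SLC7A5, had 397.4, 401.1 and 402.3 CPM at 72 h against 301.7 to 362.9 CPM in DMSO. It lay above vehicle in every library, with a log2 fold change of 0.31 ± 0.11 and an edgeR adjusted p of 0.118. SLC1A4 and SLC38A2 had log2 fold changes of −0.04 and 0.00.

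The other roles gave few differences at 72 h. ATF4 had 465.3, 448.4 and 457.8 CPM, above all vehicle libraries, with a log2 fold change of 0.19 ± 0.08 (edgeR adjusted p = 0.187). DDIT4 had 18.4, 17.2 and 15.2 CPM, which overlapped vehicle, CHAC1 17.6, 15.1 and 14.4 CPM, which also overlapped it, and TRIB3 44.2, 52.9 and 44.6 CPM, above it. PPP1R15A had 132.8, 138.4 and 139.8 CPM, above all vehicle libraries, with a log2 fold change of 0.28 ± 0.26. None of the 7 synthesis genes, 3 folate genes or 10 genes of tRNA charging and export passed, with median log2 fold changes of 0.11, 0.06 and −0.04.

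CEBPB and SLC7A5 passed at 72 h in all 9 fits that left out 1 library. SESN2 passed in 6 (up to 0.1 without 72 h replicate 3), SLC1A5 in 7 (up to 0.0538 without 72 h replicate 2) and SLC7A1 in 5 (up to 0.0876 without 72 h replicate 1). The count of members higher was 1 without 72 h replicate 2, 2 without DMSO replicate 2 or 72 h replicate 1 or 3, and 7 (16.7%, against 6.38% of all genes) without 24 h replicate 3. The count of members lower was 1 without DMSO replicate 2 or any 72 h library, and 2 without 24 h replicate 3 (4.76%, against 6.72% of all genes). Without both 24 h replicate 3 and DMSO replicate 1, 9 members were higher (21.4%, against 8.84% of all genes) and 5 lower (11.9%, against 9.32%). The 24 h libraries belong to neither group of this comparison, but all 3 groups share 1 estimate of the spread in the fit. Without 24 h replicate 3 alone, SLC3A2 kept a log2 fold change of 0.31, and its edgeR adjusted p was 0.0044.

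Between the treated groups, SLC7A5 was lower at 72 h than at 24 h and no other member passed. It had 1075, 982.9 and 1209 CPM at 24 h, within or near the vehicle range and above all 72 h libraries, for a log2 fold change of −0.47 ± 0.09 (edgeR adjusted p = 0.0219). SLC7A1 had 370.2, 365.2 and 381.3 CPM at 24 h, also above all 72 h libraries, with −0.33 ± 0.07 and an edgeR adjusted p of 0.0509. That 1 member is 2.38% of the set, where 0.568% of all tested genes were called lower and 0.448% higher. Of 42 log2 fold changes 37 were negative, with a median of −0.11 (all tested genes, −0.01), and 8 members lay wholly below their 24 h libraries and 0 wholly above (all genes 10.2% and 10.8%). By unadjusted p under 0.05, 8 members were lower (19%, against 7.4% of all genes) and 1 was higher (2.38%, against 5.75%). DDIT4 had −1.78 ± 0.43 (edgeR adjusted p = 0.143), ASNS −1.12 ± 0.40 (0.246) and CHAC1 −0.60 ± 0.17 (0.128). The call of SLC7A5 was lost without 24 h replicate 1 (0.0638) or without any 72 h library (0.11 to 0.181). Without 24 h replicate 3, 15 members were lower at 72 h (35.7%, against 6.92% of all genes) and 1, PPP1R15A, was higher (2.38%, against 5.31% of all genes), at 0.74. Without DMSO replicate 1 as well, 21 were lower (50%, against 12.4% of all genes) and 3 higher (7.14%, against 10.7%).

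By role, the per-library medians at 24 h were 0.37, 0.31 and 0.32 for the transcription factors, which were close in all 3 libraries. For amino acid synthesis they were 0.39, 0.60 and 0.12, and for mitochondrial folate 0.33, 0.25 and 0.05, each lowest in replicate 3. Stress effectors and feedback gave 0.17, 0.49 and 0.30, lowest in replicate 1. Transporters gave 0.11, 0.08 and 0.07, and tRNA charging and export 0.09, 0.14 and 0.00. At 72 h the transcription factors gave 0.25 to 0.27, and the other roles lay between −0.06 and 0.18 in the 3 libraries.

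**Figure D5:**
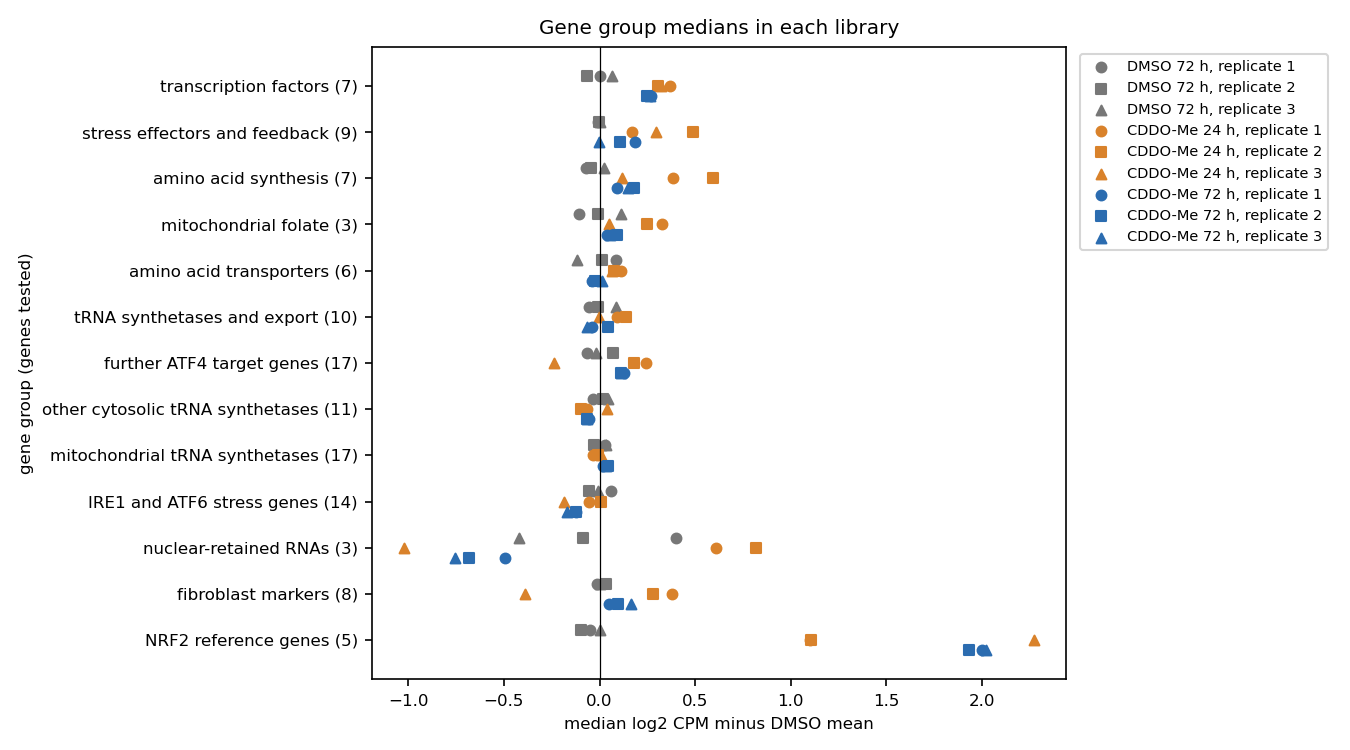
Median log2 CPM minus the DMSO mean over the tested genes of each group, with 1 marker per library. The 24 h replicate 3 triangle is the lowest of the 24 h markers for amino acid synthesis (0.12), further ATF4 targets (−0.24) and fibroblast markers (−0.39), and the highest for NRF2 reference genes (2.28).

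Neighbouring pathways were read from lists of textbook members, which were chosen with earlier results of these data known. Of 10 genes that act on eIF2 before ATF4 (the kinases EIF2AK1 to EIF2AK4, the activators GCN1, DELE1 and OMA1, the subunit EIF2S1, the exchange factor EIF2B5 and the phosphatase subunit PPP1R15B), 0 passed against DMSO at either time, with medians of −0.03 and 0.00 and 0 unadjusted p-values under 0.05. GCN1, the most expressed, had −0.03 at 24 h and −0.13 at 72 h. Of 14 genes of the IRE1 and ATF6 arms of the endoplasmic reticulum response, 0 passed at either time by edgeR, with medians of −0.08 and −0.13. Log2 fold changes were negative in 12 of the 14 at 24 h and in 13 at 72 h. The 72 h libraries lay wholly below DMSO in 8 of the 14 and wholly above in 0, where the shares over all genes were 15.2% and 15.5%. Unadjusted p-values under 0.05 were found for 1 higher and 1 lower gene at 24 h and for 3 lower genes at 72 h. The chaperone HSPA5 had 1068, 997.4 and 1102 CPM in DMSO, 984.5, 985.7 and 680.8 CPM at 24 h and 785.9, 822.3 and 794.0 CPM at 72 h. Its treated libraries were all below vehicle, with a log2 fold change of −0.40 ± 0.12 at 72 h (edgeR adjusted p = 0.061).

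Synthetases outside the set gave 0 calls at either time, among 11 other cytosolic enzymes (medians −0.03 and −0.04) and 17 mitochondrial ones (0.01 and 0.02). By unadjusted p under 0.05, 1 cytosolic enzyme was lower at 72 h (all genes 9.47%). By the same measure 1 mitochondrial enzyme was higher at each time (all genes 6.59% and 9.1%). The most expressed were VARS1, with log2 fold changes of −0.03 and −0.18, and IARS2, with 0.09 and 0.07. Of 5 tested cytosolic folate and serine enzymes 0 passed, with medians of 0.01 and 0.12. At 24 h 1 of them was higher by an unadjusted p under 0.05 (all genes 6.59%).

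Of 18 further ATF4 targets, 17 were tested, and FGF21 was at 0 in all libraries. SLC7A11, the cystine importer that both ATF4 and NRF2 are known to drive, rose at both times. It had 41.0, 42.7 and 35.7 CPM in DMSO, 127.4, 157.6 and 390.6 CPM at 24 h and 296.3, 311.5 and 291.6 CPM at 72 h. Its 24 h replicate 3 was the highest library, and the log2 fold changes were 2.51 ± 0.43 (edgeR adjusted p = 0.0353) and 2.91 ± 0.43 (0.0105). ALDH18A1, which starts proline synthesis, had 118.6, 131.2 and 121.5 CPM in DMSO and 94.4, 96.9 and 95.5 CPM at 72 h, without overlap, and fell by 0.37 on the log2 scale (edgeR adjusted p = 0.0103). No other gene of this list passed against DMSO by edgeR, and its medians were 0.14 at 24 h and 0.09 at 72 h. The 17 tested genes split in direction, unlike the members at 24 h. Their log2 fold changes were positive in 9 and negative in 8 at 24 h, and positive in 10 and negative in 7 at 72 h. The split differed between the 24 h libraries. In replicates 1, 2 and 3, the genes above every DMSO library numbered 9, 9 and 3 (all genes 30.8%, 29.1% and 28.3%). Those below numbered 4, 3 and 8 (all genes 29.3%, 27.1% and 29.0%). An unadjusted p under 0.05 belonged to 4 raised and 3 lowered genes at either time. Wholly above DMSO lay 2 genes at 24 h and 8 at 72 h, and wholly below it 2 and 5. ATF3, a stress factor named here after its values were seen, had 16.1, 21.3 and 25.3 CPM in DMSO, 12.3, 13.0 and 16.8 CPM at 24 h and 26.9, 29.5 and 28.2 CPM at 72 h. It passed between the treated groups, at 1.00 ± 0.16 (edgeR adjusted p = 0.00659).

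For scale, the quinone reductase NQO1, a standard NRF2 target, had 433.0, 419.5 and 495.2 CPM in DMSO, 1686, 1782 and 2169 CPM at 24 h and 3386, 3306 and 3353 CPM at 72 h. Its log2 fold changes were 2.06 ± 0.10 (edgeR adjusted p = 9.52e-08) and 2.90 ± 0.11 (1.26e-09). HMOX1, which breaks down heme, and GCLM, of glutathione synthesis, had 5.10 and 1.95 at 72 h. Of the 5 NRF2 reference genes 1 passed at 24 h and 4 at 72 h (all genes called higher, 0.969% and 2.89%). The highest log2 fold change of the ATF4 set at 72 h was 0.64, in CEBPB.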

How the data were processed

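The authors deposited raw whole-number counts of reads for each Ensembl gene, taken over its exons. Per the submitters' processing notes, the tools were STAR, SAMtools, and featureCounts of Subread, and the builds named were hg38 and GRCh38, without versions. Libraries were unstranded and polyA-selected (TruSeq RNA v2), per the labels' protocols. Titles and design text write CDDO in places, and all treated libraries were taken as CDDO-Me, the agent in the treatment label. Columns were matched to samples by name.

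Counts were tested with edgeR 4.0.16 in R 4.3.3 (quasi-likelihood, robust, TMM, filterByExpr), with 9 libraries in 1 fit of 3 group means. Benjamini-Hochberg adjustment ran over 14965 genes, and a gene was called at an adjusted p under 0.05. The SE of a log2 fold change is its size divided by the root of the F statistic. The test was also tried on simulated counts with known changes in genes drawn from all tested. Over the 3 comparisons it called 66 to 78% of 2-fold changes and 38 to 52% of 1.5-fold changes. A gene that was not called is therefore not shown to be unchanged. Each simulated gene had the same spread in all groups, whereas the real groups differed in spread. The rates may thus differ for the members and between the comparisons. Alternatives were other size factors, DESeq2 1.42.0, limma-voom 3.58.1, no filter, a replicate block, only the groups compared, and left-out libraries. At these depths 3 counts equal 0.107 to 0.178 CPM, and this covers counting error only.

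All 42 members could be named, and of each other list up to 3 genes that passed against DMSO, by adjusted p, or else the most expressed gene. A gene that this rule names is not reported here. The members and lists were chosen with earlier results of these data known. Of 58299 gene IDs, 57717 matched a symbol. Gene positions are those of the deposited table (GRCh38), and promoter sequences are from RefSeq (GRCh38.p14).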

Additional observations from a re-analysis of the deposited data

Results flagged for a closer look

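Among the members and the genes of the other lists, and not counting other genes called in that comparison, 3 had a change against DMSO that differed between 24 h and 72 h by edgeR's test of 72 h against 24 h. They are the transporter SLC7A5 (−0.47 on the log2 scale, adjusted p = 0.0219), the stress factor ATF3 (1.00, adjusted p = 0.00659) and the quinone reductase NQO1 (0.83, adjusted p = 0.000992). All 3 libraries at 72 h lay below all 24 h libraries for SLC7A5 and above them for ATF3 and NQO1.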

How the results depend on the processing

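The 42 members were tested again under 17 alternatives. The alternative without both 24 h replicate 3 and DMSO replicate 1 was chosen from the spread of these same libraries. With RLE size factors, the replicate block or limma-voom, no count of calls moved by more than 1.5 times, but limma-voom lost CHAC1 (0.0895), TRIB3 (0.053) and PSAT1 (0.0788) at 24 h and gained ATF4 (0.0496). Upper-quartile factors lost PSAT1 (0.0602) and gained ATF4 (0.0473) at 24 h. The members higher at 24 h (6) numbered 10 without the low-count filter (23.8%, all genes 2.02%), 2 with only the groups compared (4.76%, all genes 0.293%) and 22 without both libraries that stood apart (24 h replicate 3 and DMSO replicate 1), and 2 to 20 when 1 library was left out. The members lower at 24 h (0) numbered 2 without both, and 0 to 1 with 1 left out. At 72 h the members higher (3) numbered 7 with only the groups compared (16.7%, all genes 5.75%), 9 without both and 1 to 7 with 1 left out. The members lower (2) numbered 5 without both and 1 to 2 with 1 left out. For 72 h against 24 h, members higher (0) numbered 3 without both and 0 to 1 with 1 left out. Members lower (1) numbered 2 with upper-quartile factors (4.76%, all genes 0.595%), 4 of 40 with DESeq2 (10%, all genes 1.89%), 3 without the filter (7.14%, all genes 2.01%), 2 with only the groups compared (4.76%, all genes 0.645%), 21 without both and 0 to 15 with 1 left out. ATF5 reversed between 72 h and 24 h, from −0.01 to 0.33 (adjusted p = 0.0172), without both. The cause of these shifts was not tested. A further 64 sign changes, in 23 members, occurred where no fit made a call. Same-numbered libraries of different groups correlated at −0.028 to 0.082 in their deviations from the group means. Differently numbered ones correlated at −0.109 to 0.04. These ranges overlap and the groups are small, so whether the numbers pair the libraries cannot be told. With the replicate block the counts stayed 6 and 0, 3 and 2, and 0 and 1, with ATF4 gained (0.0472) and PSAT1 lost (0.0532) at 24 h, and some libraries correlated better with another number. Depth limits ASNS, CBS, CTH, VLDLR, KLHL24 and DDIT3, which had under 10 CPM in every library.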
